A study of Homo sapiens with 6 samples.

Results

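HOX genes encode homeodomain transcription factors that set the identity of body segments along the head to tail axis. The 39 human HOX genes lie in 4 clusters, HOXA, HOXB, HOXC and HOXD, and within a cluster the genes are numbered by paralog group, from the anterior groups (1 to 4) through the central groups (5 to 8) to the posterior groups (9 to 13). Every locus of the expression file with a HOX symbol of one of these clusters was taken, whatever its expression. This gave 36 loci of the 47577 in the file, which together carry the 39 HOX symbols because 2 loci join several genes (HOXA3 // HOXA5 and HOXC4 // HOXC5 // HOXC6). The reads of a joined locus cannot be assigned to a single gene.

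RNA was taken from OVCAR3 cells, an established ovarian cancer line used as a model of the high-grade serous subtype. In 3 libraries the cells had received DMSO, the solvent, and in the other 3 they had received THZ531 at 200 nM, for 6 h. THZ531 is a covalent inhibitor of CDK12 and CDK13, kinases that phosphorylate the tail of RNA polymerase II (RNAPII) during elongation. The libraries were grouped by their titles, which name THZ531, although the treatment field of their labels has THZ1, a related compound, at that dose. The submitters call the 3 libraries of a group biological repeats of this single line. The kinases themselves gave no check of the inhibitor, which acts on the protein: CDK12 stood at 6762 ± 105 in DMSO and 8835 ± 357 in THZ531, and CDK13 at 3918 ± 149 and 3863 ± 44.8 (normalized read count, SD, n = 3).

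In vertebrate embryos the order of HOX genes on the chromosome follows the order in which they are used along the body axis. In the Mullerian duct, which gives rise to the oviduct, uterus, cervix and upper vagina, the posterior HOXA genes are known to be used in this order, from HOXA9 in the oviduct through HOXA10 and HOXA11 to HOXA13. HOX proteins bind DNA together with TALE homeodomain cofactors of the PBX, MEIS and PREP families. Polycomb complexes keep the clusters silent and trithorax (MLL) complexes keep them active.

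The values are read counts per locus divided by a size factor for each library, which is called here the normalized read count. They are not corrected for gene length. The reads on loci ranged from 53054048 to 70986130 per library. Of the 18 epithelial markers of Mullerian type and ovarian carcinoma, 18 passed the minimum described below, with 2 called higher and 2 lower. These are 11.1% in each direction, beside 15.7% higher and 23.9% lower of all tested loci. Of the 6 leukocyte markers 3 passed the minimum, and CD3E was listed at 0 in the 6 libraries. Of the 8 fibroblast and endothelial markers 6 passed it, and DCN did not exceed 3.19. The summed level of the 6 leukocyte markers lay between 528 and 598 in DMSO and between 519 and 598 in THZ531, most of it from CD68. The summed level of the 8 fibroblast and endothelial markers was 1820 to 2106 in DMSO and 3476 to 3730 in THZ531. COL1A1, COL3A1 and VWF were called higher, 3 of the 6 tested (50%, against 15.7% of all tested loci). The part of this rise in the HOX values was not tested. In RNA from a whole culture, fewer cells that use a gene and less RNA per cell cannot be told apart.

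Upstream sequence from RefSeq (GRCh38.p14) was matched by symbol for 20 of the 39 HOX genes, in 26 distinct windows of 250 bases before a transcription start. Windows are shown for 3 HOXA genes on the minus strand of chromosome 7 that were chosen after their values were seen, one that fell (HOXA2, chr7:27102684-27102933) and a pair that rose (HOXA9, chr7:27165538-27165787, and HOXA10 at its start nearest to HOXA9, chr7:27174321-27174570). GENCODE lists no exon in the HOXA9 and HOXA10 windows, and in the HOXA2 window the exon of a transcript without a coding sequence reaches into the bases next to the start. Capitals mark matches on either strand to TATAAA (the core of a TATA box), to CCAAT (a site of NF-Y) or to TGATTNAT (a joint site of PBX and HOX proteins), and none of the marked matches overlaps another.
HOXA2: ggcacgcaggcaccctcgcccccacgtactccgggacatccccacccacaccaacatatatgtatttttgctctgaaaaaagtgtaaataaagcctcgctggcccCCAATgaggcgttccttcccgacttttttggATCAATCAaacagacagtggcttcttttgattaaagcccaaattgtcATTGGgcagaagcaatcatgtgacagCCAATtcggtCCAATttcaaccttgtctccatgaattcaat
HOXA9: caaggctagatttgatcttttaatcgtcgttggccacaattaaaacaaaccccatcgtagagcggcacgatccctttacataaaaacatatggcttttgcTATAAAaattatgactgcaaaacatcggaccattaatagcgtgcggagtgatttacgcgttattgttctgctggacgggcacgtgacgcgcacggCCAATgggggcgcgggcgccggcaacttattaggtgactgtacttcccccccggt
HOXA10: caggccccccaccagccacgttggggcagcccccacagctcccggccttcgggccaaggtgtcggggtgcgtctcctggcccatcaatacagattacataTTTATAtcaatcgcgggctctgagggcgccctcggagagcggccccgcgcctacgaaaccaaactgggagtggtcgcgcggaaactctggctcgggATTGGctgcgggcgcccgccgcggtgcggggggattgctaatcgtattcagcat

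The HOXA2 window held 4 matches to CCAAT and 1 to TGATTNAT and none to TATAAA, while the HOXA9 and HOXA10 windows each held 1 match to TATAAA and 1 to CCAAT. Both TATAAA matches began 150 bases before the start, and that of HOXA10 was on the strand opposite to the gene. Of the 26 distinct HOX windows 17 held CCAAT, as did 32.0% of 35116 human windows of the same length. TATAAA was found in 5 of the 26 and in 10.7% of all windows, and TGATTNAT in 2 of the 26 (HOXA2 and HOXD11) and in 2.48%. CG dinucleotides numbered 8 in the HOXA2 window, 20 in that of HOXA9 and 24 in that of HOXA10, against a median of 11 over all windows. These are matches of letters only, and occupancy of the windows was not measured.

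Expression was compared with limma on the log2(value + 1) scale over 17568 loci, those that reached 10 normalized reads in 3 or more libraries of the 6. Calls of higher or lower required a 1.5-fold or greater change together with p of 0.05 or less before adjustment, and adjusted p-values (Benjamini-Hochberg) are over the 17568 loci. Of the 36 HOX loci, 26 passed the minimum, namely 10 of 10 in HOXA, 8 of 10 in HOXB, 5 of 7 in HOXC and 3 of 9 in HOXD. Of these 26, 23 reached a value of 10 in the 6 libraries, HOXD13 passed through its 3 THZ531 libraries with 1 of the DMSO libraries, and HOXA13 and HOXD8 passed with libraries of both groups.

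**Figure D1:**
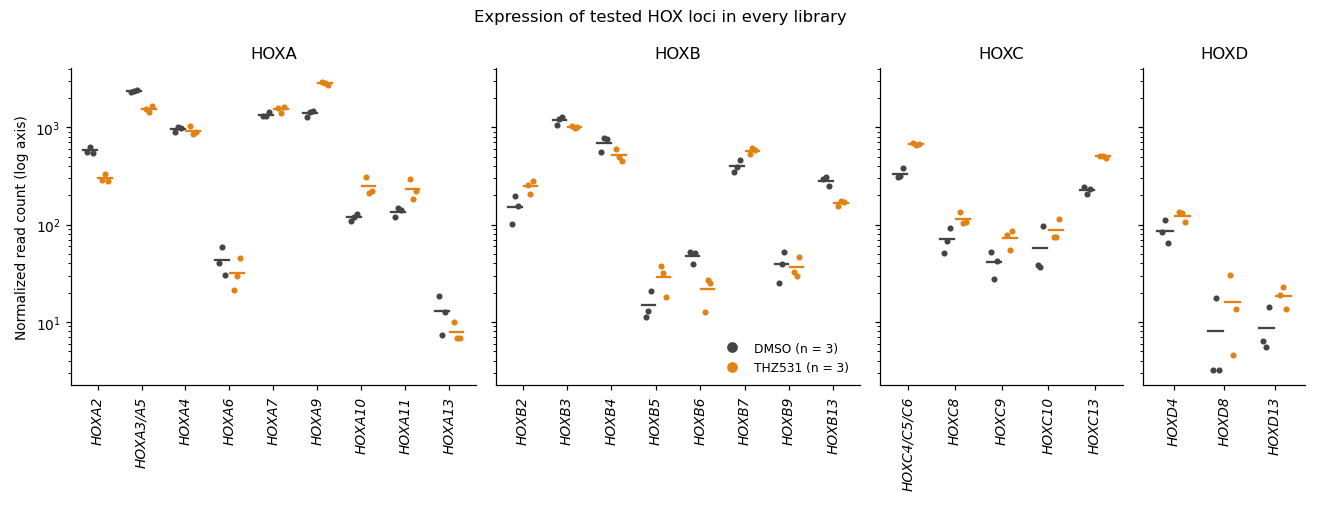
Normalized read count (log axis) of tested HOX loci in each library, in paralog order within the 4 clusters. Points are single libraries (grey for DMSO, orange for THZ531, n = 3 each) and bars are group means. HOXA9 lies at 1266 to 1477 in DMSO and 2702 to 2919 in THZ531, and HOXA2 at 551 to 629 and 281 to 332.

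Upon treatment with THZ531, 9 of the 26 tested HOX loci rose, 4 fell and 13 were not called. Over all tested loci, 15.7% were called higher and 23.9% lower. The HOX shares were 34.6% higher and 15.4% lower, and their median log2 fold change was 0.53 against -0.01 for all tested loci. Of the 26 log2 fold changes 15 stood above 0 and 11 below. The direction depended on the scaling of the libraries: scaled to the same total the split was 4 higher and 5 lower (all loci 1647 and 5615), and scaled to RPL34 it was 1 higher and 8 lower (all loci 1078 and 7524). These scalings moved the median of all tested loci to -0.25 and -0.50. Relative to it the HOX median stood 0.54 higher under the deposited scaling and under both of these. This sameness was built in, because dividing each library by 1 number shifts the log2 fold changes of all loci nearly alike. An adjusted p of at most 0.05 was reached by 18 of the 26 HOX loci (69.2%), which is close to the 68.6% of all tested loci, and in 15 of the 26 the values of the groups did not overlap, against 71.7% of all tested loci.

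**Figure D2:**
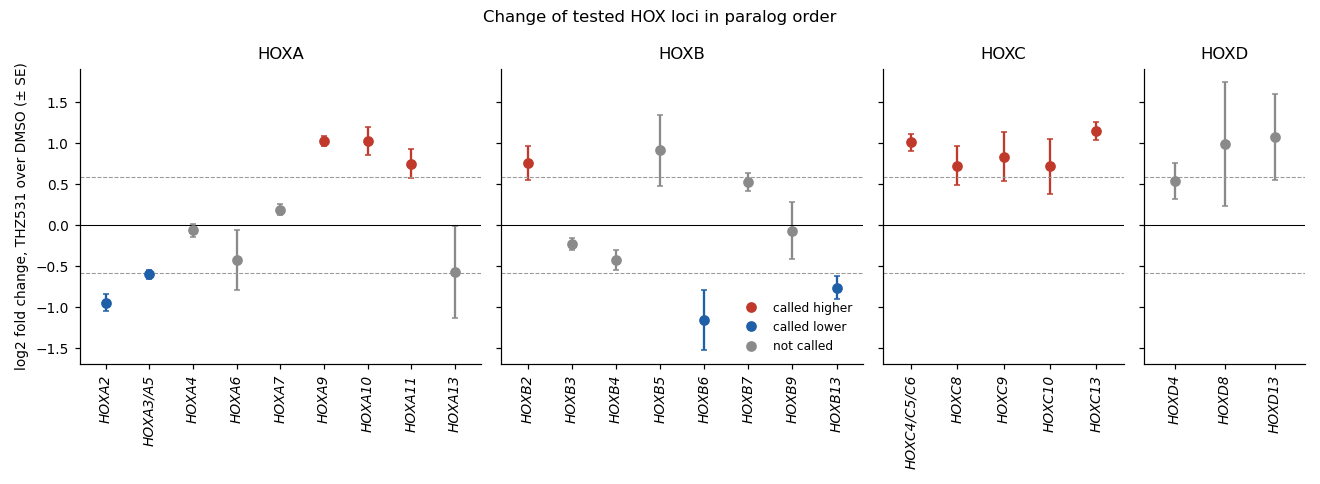
Log2 fold change, THZ531 over DMSO, with its standard error for tested HOX loci, in paralog order within each cluster. Red and blue points were called higher or lower, grey points were not called, and dashed lines mark a fold change of 1.5. The 5 HOXC loci lie between 0.72 and 1.15, whereas HOXA runs from -0.94 for HOXA2 to 1.02 for HOXA9. Scaled to the same total or to RPL34, HOXA7 turns from above 0 to below 0.

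HOXA carried most of the HOX reads, with 68.3% of the summed value of the 36 loci in DMSO and 66.6% in THZ531. The cluster spans chr7:27092993-27254256 (hg38), with its genes on the minus strand and the anterior genes at the lower coordinates. Its upper end is that of the HOXA10 locus as annotated in the file, beyond the end of HOXA13 at 27200106. Its summed value was 7896 ± 379 in DMSO and 8429 ± 331 in THZ531 (SD, n = 3), a ratio of 1.07. Beneath this sum the loci moved apart, as 3 rose (HOXA9, HOXA10 and HOXA11), 2 fell (HOXA2 and HOXA3 // HOXA5) and 5 were not called. Among all tested loci, 15.7% were called higher and 23.9% lower.

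HOXA9, a posterior gene used in the oviduct, had values of 1266, 1445 and 1477 in DMSO and 2919, 2871 and 2702 in THZ531. The lowest treated library was well above the highest control. The log2 fold change was 1.02 (SE 0.06, adjusted p = 7.35e-10), a ratio of means of 2.03. HOXA10, the uterine gene, had 110, 121 and 128 in DMSO and 307, 210 and 223 in THZ531. It too showed no overlap, with a log2 fold change of 1.02 (SE 0.17, adjusted p = 5.9e-05). HOXA11 had 119, 147 and 140 in DMSO and 292, 182 and 221 in THZ531, and its log2 fold change was 0.75 (SE 0.18, adjusted p = 0.00155). THZ531 replicate 1 was the highest library for both genes, and without it HOXA11 stood at 0.57 and was no longer called. Scaled to RPL34, the log2 fold changes were 0.53 for HOXA9, 0.53 for HOXA10 and 0.26 for HOXA11, none of them called, and scaled to the same total HOXA11 lost its call (0.51).

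HOXA13, the most posterior gene of the cluster, was close to the limit of detection, with 18.3, 7.42 and 12.8 in DMSO and 10.1, 6.82 and 6.83 in THZ531. These values rest on 6 to 23 reads, the groups overlapped and the log2 fold change of -0.57 (SE 0.56) was not called.

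At the other end of the cluster, HOXA2, which patterns the hindbrain and the second pharyngeal arch, had 554, 629 and 551 in DMSO and 287, 332 and 281 in THZ531. Its groups were clearly separated and the log2 fold change was -0.94 (SE 0.11, adjusted p = 7.5e-07). The joined HOXA3 // HOXA5 locus had 2280, 2337 and 2398 in DMSO and 1534, 1441 and 1659 in THZ531. Its log2 fold change of -0.60 (SE 0.06, adjusted p = 1.79e-07) was just past the fold threshold, and it was -0.58 without DMSO replicate 3 and -0.55 without THZ531 replicate 2, neither of them called.

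Between these ends lay loci that were not called. HOXA4 had 895, 1014 and 985 in DMSO and 1024, 862 and 886 in THZ531, with overlapping groups and a log2 fold change of -0.06 (SE 0.08). HOXA7 had 1309, 1314 and 1425 in DMSO and 1591, 1399 and 1630 in THZ531, a log2 fold change of 0.19 (SE 0.07) that became -0.05 when scaled to the same total and -0.30 when scaled to RPL34. HOXA6 was low and variable, from 30.3 to 58.5 in DMSO and from 21.4 to 45.5 in THZ531, with a log2 fold change of -0.43 (SE 0.36), and it was called lower when scaled to RPL34 (-0.90).

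Ratios between loci of one library do not depend on how the libraries were scaled. The reads of HOXA9 over those of HOXA2 gave 2.29, 2.30 and 2.68 in DMSO and 10.2, 8.65 and 9.62 in THZ531, a ratio of means of 3.91. HOXA9 over HOXA3 // HOXA5 went from 0.596 ± 0.0356 to 1.84 ± 0.189 (SD, n = 3), so that HOXA9 had fewer reads than the joined locus in the DMSO libraries and more in the THZ531 libraries. HOXA10 over HOXA9 was 0.0857 ± 0.00189 in DMSO and 0.0870 ± 0.0165 in THZ531, a difference smaller than the spread between replicates. HOXA9 over HOXA2 and HOXA9 over HOXA3 // HOXA5 each set a locus called higher over a locus called lower, so their shifts follow from those calls. No test was made of these ratios.

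**Figure D3:**
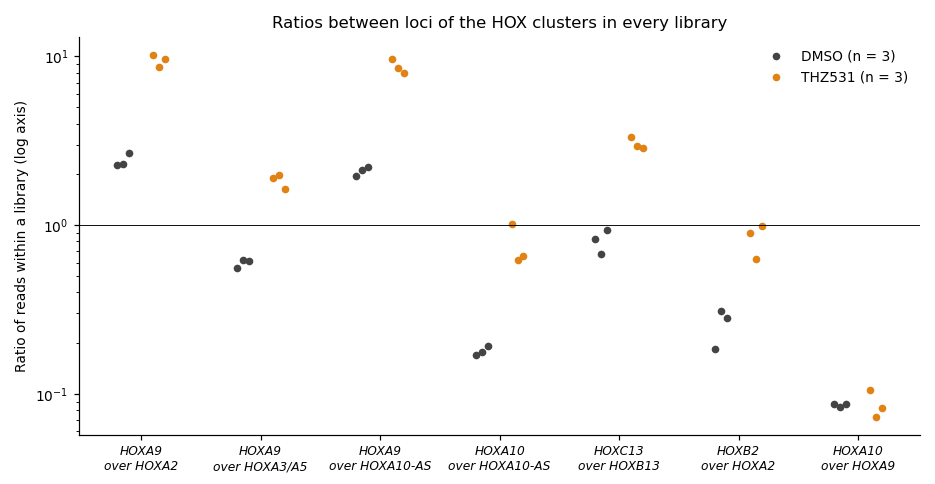
Ratio of reads between pairs of loci within each library (log axis), for DMSO (grey) and THZ531 (orange), n = 3 each. HOXA9 over HOXA2 lies at 2.29 to 2.68 in DMSO and 8.65 to 10.2 in THZ531, and HOXC13 over HOXB13 at 0.679 to 0.932 and 2.87 to 3.31, while the groups of HOXA10 over HOXA9 overlap. Apart from HOXA10 over HOXA9, each pair sets a locus called higher over a locus called lower.

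Some HOXA loci share positions in the annotation. The HOXA10 locus is drawn over 83665 bases and overlaps HOXA9, HOXA11 and HOXA13 as well as HOXA10-AS and HOXA11-AS, and HOXA3 // HOXA5 overlaps HOXA4 and HOXA6. In the other clusters HOXB3 overlaps HOXB4, HOXB6 overlaps HOXB-AS3 and HOXC13 overlaps HOXC13-AS. HOXA2 overlaps no other locus. The strand setting of the counting is not given in the sources used here, so reads from overlapping genes, including antisense partners, cannot be told apart.

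HOXB spans chr17:48528526-48728758 and held 24.4% of the summed HOX value in DMSO and 20.5% in THZ531. Its sum was 2817 ± 310 in DMSO and 2600 ± 53.6 in THZ531, a difference within the spread of the DMSO libraries. HOXB2 rose, HOXB6 and HOXB13 fell, and 5 of the 8 tested loci were not called (all tested loci, 15.7% higher and 23.9% lower).

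HOXB2, like HOXA2 a hindbrain gene, had 102, 195 and 154 in DMSO and 257, 208 and 279 in THZ531. The groups did not overlap, and the log2 fold change was 0.75 (SE 0.20, adjusted p = 0.00371), but 0.50 and not called without DMSO replicate 1, its lowest library. Nor was HOXB2 called when scaled to the same total (0.51) or to RPL34 (0.26). Thus the group 2 paralogs differed in sign, and HOXB2 over HOXA2 within a library was 0.185, 0.310 and 0.280 in DMSO and 0.895, 0.627 and 0.992 in THZ531. HOXB13, the posterior gene of the cluster and a prostate lineage factor, had 292, 306 and 248 in DMSO and 154, 173 and 171 in THZ531, with a log2 fold change of -0.76 (SE 0.14, adjusted p = 0.000139). HOXB6 had 52.4, 38.97 and 51.1 in DMSO and 12.6, 27.3 and 25.03 in THZ531, and its log2 fold change was -1.16 (SE 0.37, adjusted p = 0.0109). HOXB6 rests on 42 to 66 reads per DMSO library and 10 to 24 per THZ531 library.

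HOXB3, HOXB4 and HOXB7 were the loci of the cluster with the most reads, and none was called. HOXB3 had 1058, 1222 and 1265 in DMSO and 1033, 972 and 1003 in THZ531 (log2 fold change -0.23, SE 0.07). HOXB4, known for its role in blood stem cells, had 564, 767 and 760 in DMSO and 598, 498 and 453 in THZ531 (log2 fold change -0.43, SE 0.12), and these groups overlapped. HOXB7 had 350, 394 and 464 in DMSO and 531, 610 and 589 in THZ531. Its groups were apart, but the log2 fold change of 0.53 (SE 0.11, adjusted p = 0.00049) was under the fold threshold, and without DMSO replicate 3 it was 0.63 and called. HOXB4 stood at -0.67 scaled to the same total and at -0.92 scaled to RPL34, called lower in both. HOXB3 was called lower only when scaled to RPL34 (-0.73). HOXB9 had 25.4 to 52.7 in DMSO and 29.6 to 46.6 in THZ531, and HOXB5 had 11.1 to 20.7 in DMSO and 18.2 to 37.8 in THZ531 (log2 fold change 0.91, SE 0.44). HOXB5 was called higher without DMSO replicate 3 (1.16) or THZ531 replicate 3 (1.21).

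HOXC spans chr12:53938792-54056030, on the plus strand with the posterior genes first. Its 5 tested loci were called higher, against 15.7% of all tested loci. The summed value of its 7 loci was 695, 669 and 846 in DMSO and 1495, 1408 and 1470 in THZ531. The treated libraries lay above the controls without overlap, with a ratio of means of 1.98, and the share of HOXC in the summed HOX value was 6.37% in DMSO and 11.5% in THZ531. Scaled to the same total or to RPL34 the 5 log2 fold changes stayed above 0, but 2 were called in the first case (HOXC13 and HOXC4 // HOXC5 // HOXC6) and only HOXC13 in the second.

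HOXC13, a regulator of hair keratins and the posterior end of the cluster, had 241, 208 and 231 in DMSO and 509, 512 and 489 in THZ531. The treated values were tightly grouped and the log2 fold change was 1.15 (SE 0.11, adjusted p = 1.05e-07). It was called under each alternative tried, with a range from 0.66 to 1.19. At the anterior end, the joined HOXC4 // HOXC5 // HOXC6 locus had 306, 316 and 380 in DMSO and 693, 654 and 666 in THZ531, with a log2 fold change of 1.01 (SE 0.10, adjusted p = 2.18e-07) that was 0.52 when scaled to RPL34.

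The 3 HOXC loci between these had fewer reads and wider errors. HOXC8 had 51.6, 68.7 and 92.6 in DMSO and 136, 103 and 107 in THZ531 (log2 fold change 0.72, SE 0.24, adjusted p = 0.0138). HOXC9 had 52.4, 27.8 and 42.3 in DMSO and 78.1, 54.6 and 85.3 in THZ531 (log2 fold change 0.84, SE 0.30, adjusted p = 0.0213). HOXC10 had 38.1, 37.1 and 96.5 in DMSO and 74.3, 73.9 and 114 in THZ531, and DMSO replicate 3 exceeded 2 of the 3 treated libraries. Its log2 fold change of 0.72 (SE 0.34) had a p of 0.0494 and an adjusted p of 0.0698, and it was not called by edgeR or DESeq2. HOXC8 was not called without DMSO replicate 1 (0.52) and HOXC9 not without DMSO replicate 2 (0.59) or THZ531 replicate 3 (0.71). HOXC10 was called when DMSO replicate 3 was left out and lost its call when any other library was left out, with 0.50 without DMSO replicate 1, 0.49 without DMSO replicate 2, and 0.82, 0.82 and 0.51 without THZ531 replicates 1, 2 and 3.

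HOXD, at chr2:176092721-176190907, had the lowest summed value of the 4 clusters, at 114 ± 28.4 in DMSO and 171 ± 20.02 in THZ531. This was about 1% of the HOX total (0.985% in DMSO and 1.35% in THZ531). HOXD4 made up most of the HOXD sum, with 84.2, 111 and 64.6 in DMSO and 134, 131 and 107 in THZ531. Its log2 fold change of 0.54 (SE 0.22) was not called. It was called without DMSO replicate 2 (0.73) and without THZ531 replicate 3 (0.64). HOXD13, a limb and genital gene, had 6.35, 5.57 and 14.4 in DMSO and 18.9, 22.7 and 13.7 in THZ531, and HOXD8 had 3.18, 17.6 and 3.19 and then 30.2, 4.55 and 13.7. The log2 fold changes were 1.07 (SE 0.53) for HOXD13 and 0.99 (SE 0.76) for HOXD8, neither of them called, although HOXD13 was called without DMSO replicate 3 (1.46) and HOXD8 without THZ531 replicate 2 (1.64). HOXD13 passed the minimum through its 3 THZ531 libraries, and DMSO replicate 3 was the only DMSO library to reach it. A rise of HOXD13 was thus favoured by the minimum, above all without that library.

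The other 10 HOX loci did not pass the minimum. HOXB1, HOXD9 and HOXD12 were listed at 0 in the 6 libraries, which allows up to 3 reads, a normalized value of 2.38 to 2.78 per DMSO library and 3.41 to 3.78 per THZ531 library. HOXC12, HOXD10 and HOXD11 had at most 4 reads in a library, HOXB8 at most 8, and HOXC11, HOXD1 and HOXD3 at most 12. Changes of these loci were not detectable at this depth.

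When levels were set per kilobase of GENCODE exon (normalized reads per kb, summed over the genes of a joined locus), HOXA7 (560 ± 27.2) and HOXA4 (558 ± 36.1) stood highest in DMSO, and these neighbours differed by less than their spread. HOXA9 followed at 460 ± 37.4 and HOXA3 // HOXA5 at 388 ± 9.82. HOXB4 stood at 348 ± 57.8, HOXB7 at 265 ± 37.6 and HOXA2 at 248 ± 19.0. In THZ531 HOXA9 stood first, at 933 ± 37.7, before HOXA7 at 639 ± 51.2 and HOXA4 at 535 ± 50.6. HOXA10, with 32.2 ± 2.56 in DMSO and 66.6 ± 14.2 in THZ531, remained far below HOXA9. HOXD4, short and with few reads, stood above HOXA10 on this scale, at 76.3 ± 20.7 in DMSO and 109 ± 12.9 in THZ531.

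By paralog group, the posterior loci (9 to 13) had 6 called higher and 1 called lower of 10 tested, with a median log2 fold change of 0.79 (all tested loci, 15.7% higher and 23.9% lower). The anterior loci (1 to 4) had 2 higher and 2 lower of 9 tested, with a median of -0.23, and the central loci (5 to 8) 1 higher and 1 lower of 7, with a median of 0.53. Joined loci were placed by their lowest number. The difference between posterior and anterior loci was widest in HOXA, where the medians were 0.89 and -0.46. It was not seen in HOXB, where the medians were -0.41 for 2 posterior loci and -0.23 for 3 anterior loci, nor in HOXC, where the single anterior locus stood at 1.01 and 3 posterior loci had a median of 0.84. In HOXD the single tested posterior locus, HOXD13, stood at 1.07 and the single anterior locus at 0.54, neither of them called. HOXD13 had passed the minimum through its THZ531 libraries, which favoured a rise. Group 13 itself was split, with HOXC13 higher, HOXB13 lower and HOXA13 and HOXD13 not called, and HOXC13 over HOXB13 within a library was 0.812 ± 0.127 in DMSO and 3.05 ± 0.234 in THZ531. No test was made between paralog groups or clusters.

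HOX loci are short. The median span of the 26 tested loci was 3773 bases against 21912 for all tested loci, and the median longest intron of the main transcript was 993 bases against 9020. Of all tested loci spanning under 10 kb, 22.4% were called higher and 22.4% lower, and of those spanning 10 kb or more 12.3% and 24.7%. Of the 21 HOX loci under 10 kb, 6 were called higher (28.6%) and 3 lower (14.3%). The 5 longer HOX loci (HOXA3 // HOXA5, HOXA9, HOXA10, HOXB3 and HOXC4 // HOXC5 // HOXC6) had 3 called higher and 1 lower. The split follows the spans in the expression file, which differ from GENCODE for some loci. HOXA10 spans 83665 bases in the file and 9657 in GENCODE, and HOXB7 spans 3789 and 26341. The part of span in the HOX changes was not tested.

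Many noncoding RNAs are transcribed within the clusters. Of 26 such RNAs in a list written for this work 21 were in the file, 9 passed the minimum, 3 fell and none rose. Of all tested loci 23.9% were called lower. Scaled to RPL34, 5 of the 9 were called lower, as were 42.8% of all tested loci. HOXA10-AS, antisense to the HOXA9 and HOXA10 region at chr7:27168899-27171915, had 644, 685 and 666 in DMSO and 304, 338 and 338 in THZ531. It fell without overlap, with a log2 fold change of -1.03 (SE 0.09, adjusted p = 6.6e-08), while HOXA9 and HOXA10 on the other strand rose. HOXA9 over HOXA10-AS within a library accordingly went from 2.10 ± 0.125 to 8.71 ± 0.829 and HOXA10 over HOXA10-AS from 0.180 ± 0.0117 to 0.765 ± 0.215.

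HOXA-AS3, antisense to the region from HOXA5 to HOXA7, had 74.6, 79.8 and 55.9 in DMSO and 39.04, 29.6 and 43.2 in THZ531 (log2 fold change -0.89, SE 0.28, adjusted p = 0.00994). HOXA11-AS was also called lower at a very low level, 12.1 to 24.7 in DMSO and 2.28 to 10.1 in THZ531, and it lost the call without DMSO replicate 3 (-1.34) or without THZ531 replicate 3 (-1.28). It passed the minimum through its 3 DMSO libraries, with 1 THZ531 library reaching it, so its call was favoured by the minimum. HOTAIRM1, a noncoding RNA of the HOXA cluster known from myeloid cells, had 513, 483 and 471 in DMSO and 617, 598 and 561 in THZ531. Its groups did not overlap, but its log2 fold change of 0.27 (SE 0.09) was under the fold threshold and turned to -0.22 when scaled to RPL34. HOXA-AS2 had a log2 fold change of -0.19 (SE 0.11) and was called lower when scaled to RPL34 (-0.68). HOTAIR, the noncoding RNA of the HOXC cluster known from breast cancer, did not exceed 4.76 in DMSO and was at 0 in the THZ531 libraries. The 5 microRNA genes of the list that were in the file (MIR10A, MIR10B, MIR196A1, MIR196A2 and MIR615) were listed at 0, and polyA plus libraries are not made to capture mature microRNAs.

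Of the 62 loci other than HOX genes inside the cluster spans, 12 passed the minimum, 2 were called higher and 3 lower. These counts stand beside 15.7% higher and 23.9% lower among all tested loci. HOXA11-AS, among the 3 lower, passed through its DMSO libraries as described above. Both called higher passed the minimum through their 3 THZ531 libraries alone, with no DMSO library reaching it, so they had to differ and are given as values only. They were singled out after their values were seen. An unnamed locus within HOXC4 // HOXC5 // HOXC6 (chr12:54019910-54022588) had 4.76, 3.71 and 3.19 in DMSO and 29.0, 21.6 and 18.2 in THZ531, and LOC401021 in HOXD had 0, 3.71 and 0 and then 12.6, 18.2 and 11.4. HAGLR and HAGLROS of HOXD, HOXB-AS1 and HOXC13-AS were not called.

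Beyond the clusters, 41 of the 85 loci overlapping the 500 kb on each side passed the minimum, and 5 of them rose and 8 fell, with a median log2 fold change of -0.04, shares that are close to those of all tested loci (15.7% higher and 23.9% lower). The nearest protein-coding genes that passed the minimum beside HOXC, CALCOCO1 on one side and SMUG1 on the other, both fell (log2 fold changes -0.90, SE 0.09, and -0.74, SE 0.10), and in these flanks 7 of 18 tested loci were called lower and 1 higher. Of these 7, 1 passed the minimum through its DMSO libraries alone, and the 1 called higher through its THZ531 libraries alone. An unnamed locus called higher beside HOXA passed through its 3 THZ531 libraries with 1 DMSO library. Such calls were favoured by the minimum. CALCOCO1 had 645, 644 and 615 in DMSO and 360, 318 and 340 in THZ531, opposite in direction to the 5 HOXC loci. Next to HOXD, MTX2 fell (log2 fold change -1.01, SE 0.07) and LNPK was not called (0.10, SE 0.10, with -0.14 scaled to the same total and -0.39 scaled to RPL34). SKAP2 (-0.47, SE 0.07) and HIBADH (-0.15, SE 0.09) beside HOXA, and SKAP1 (-0.36, SE 0.51) and CALCOCO2 (-0.43, SE 0.05) beside HOXB, were not called. Scaled to the same total, SKAP2 (-0.71) and CALCOCO2 (-0.68) were called lower, and scaled to RPL34 so were SKAP2 (-0.96), CALCOCO2 (-0.93) and HIBADH (-0.64).

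**Figure D4:**
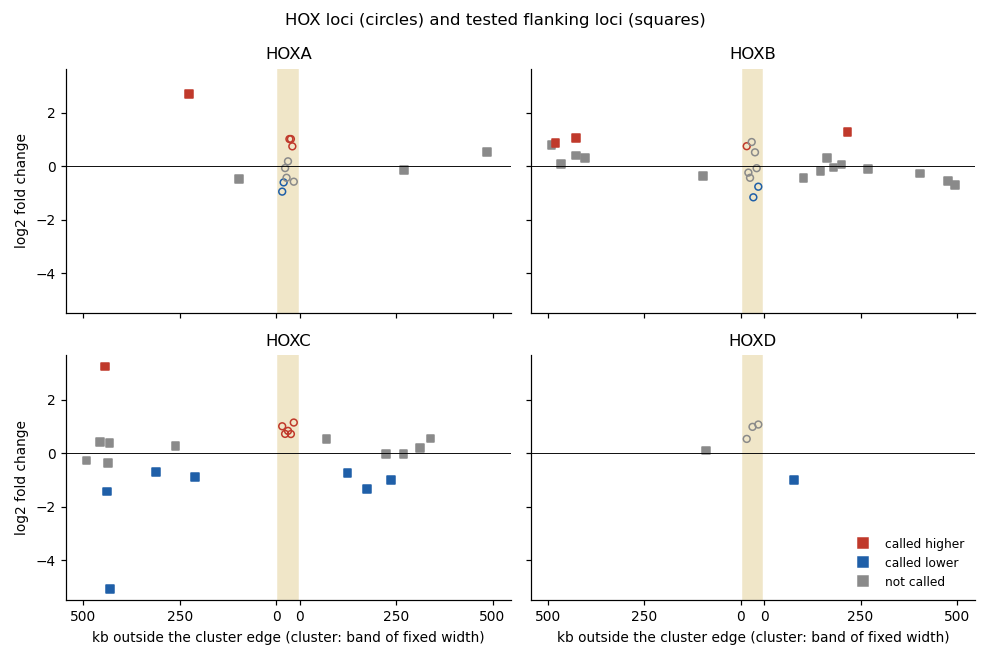
Log2 fold change of tested HOX loci (circles, spaced evenly in paralog order inside a band of fixed width) and of tested loci in the 500 kb on either side (squares, by distance in kb from the cluster edge), with left at the lower coordinates. Red and blue were called higher or lower and grey were not called. The 5 HOXC circles lie from 0.72 to 1.15, while 7 of the 18 squares beside HOXC were called lower (all tested loci, 23.9%). Of these 7, 1 passed the minimum through its DMSO libraries alone, and the 1 called higher there through its THZ531 libraries alone.

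Of the 9 tested members of the PBX, MEIS and PREP families and their partner PBXIP1, 4 fell and none rose, where 23.9% of all tested loci fell. PBX2, PBX3 and PBX4, which bind DNA beside HOX proteins, were among those that fell. PBX3 had 1479, 1730 and 1779 in DMSO and 699, 696 and 681 in THZ531 (log2 fold change -1.26, SE 0.07, adjusted p = 4.77e-10). PBX4 had 268, 314 and 247 in DMSO and 162, 113 and 139 in THZ531, and PBX2 had a log2 fold change of -0.71. The groups of these genes did not overlap. MEIS1 (-0.10), MEIS2 (0.28), MEIS3 (0.08), PKNOX1 (0.22) and PBXIP1 (0.06) were not called, and PKNOX2 was listed at 0. The list had 4 called lower scaled to the same total as well, and 5 scaled to RPL34. The shares of all tested loci were then 9.38% higher and 32.0% lower for the same total, and 6.14% and 42.8% for RPL34.

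Of 34 tested Polycomb genes 12 rose (35.3%) and 6 fell (17.6%), against 9 and 8 scaled to the same total and 2 and 9 scaled to RPL34. The shares of all tested loci were 15.7% higher and 23.9% lower. They were 9.38% and 32.0% scaled to the same total, and 6.14% and 42.8% scaled to RPL34. Those that changed most were EPOP (log2 fold change 1.36), which modulates Polycomb repressive complex 2, RYBP (1.10) of variant complex 1 and EED (1.02) of complex 2 among the higher, and CBX7 (-1.70), CBX6 (-1.26) and PHC2 (-1.23), subunits of canonical complex 1, among the lower. EPOP had 2847, 2779 and 2643 in DMSO and 7189, 7178 and 6881 in THZ531, and CBX7 had 387, 394 and 233 in DMSO and 84.4, 81.8 and 146 in THZ531. Neither pair of groups overlapped. EZH2, the methyltransferase of complex 2, was also called higher (0.83), and its paralog EZH1 lower (-0.92).

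Of 30 tested trithorax and MLL genes 7 rose (23.3%), 1 fell (3.33%) and 22 were not called, against 4 higher and 2 lower scaled to the same total and 2 and 7 scaled to RPL34. All tested loci had 15.7% higher and 23.9% lower, then 9.38% and 32.0% for the same total and 6.14% and 42.8% for RPL34. MLLT3, a reader of acylated histones found in fusions with MLL in leukaemia, had 682, 743 and 653 in DMSO and 1981, 1903 and 1881 in THZ531 (log2 fold change 1.47, SE 0.07). HCFC2 (1.16) and KAT7 (0.88) also rose, and the acetyltransferase KAT8 fell (-1.35, SE 0.11). KMT2A, which encodes MLL itself, was not called (0.09).

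Among other homeobox genes of the ANTP class, to which HOX genes belong, 22 of 52 passed the minimum, 9 rose and 2 fell. These are 40.9% higher and 9.09% lower of the 22, beside 15.7% and 23.9% of all tested loci. The split was 5 and 2 scaled to the same total and 3 and 3 scaled to RPL34. Under these scalings all tested loci had 9.38% higher and 32.0% lower, and 6.14% and 42.8%. HHEX (log2 fold change 1.37), the joined NKX2-1 // SFTA3 locus (1.22) and DLX2 (0.94) rose. MEOX1, a gene of the embryonic somites, had 4200, 4048 and 4188 in DMSO and 660, 740 and 688 in THZ531, and fell by 2.57 on the log2 scale (SE 0.06, adjusted p = 1.56e-14). EVX1 and EVX2, which flank the posterior ends of HOXA and HOXD, were listed at 0.

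**Figure D5:**
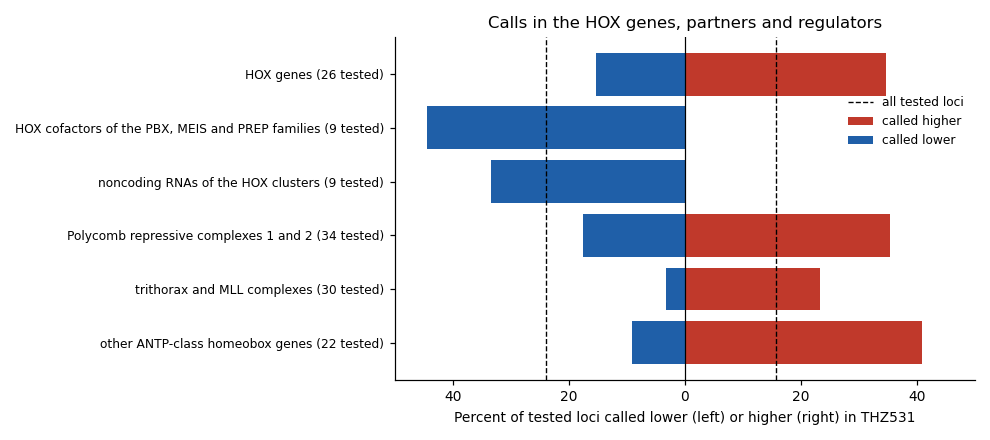
Percent of tested loci called lower (blue, left) or higher (red, right) in THZ531 for the HOX genes and 5 lists of partners, regulators and relatives, with the number tested after each name. Dashed lines mark all tested loci (23.9% lower, 15.7% higher). The HOX genes stand at 15.4% and 34.6%, and the cofactor and noncoding RNA lists have none called higher, while scaled to RPL34 the HOX split turns to 1 higher and 8 lower.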

How the data were processed

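PolyA plus RNA of OVCAR3 cells was sequenced in 6 libraries. Per the methods and the labels, reads were mapped to hg38 with STAR (2.7.5a in the submitters' processing notes), counted on FAST DB genes with featureCounts and normalized with DESeq2. The deposited values are therefore a signal, for which the authors had divided each library's read counts by its DESeq2 size factor. They are whole multiples of 1 step in 100% of values (tolerance 0.01 reads), so reads were recovered. Low counts of HOX loci were mostly even (40 of 44 counts from 1 to 20 reads), as were 64.5% of such counts over all loci. Single reads may therefore not be independent molecules, and the counting limits given cover counting error only.

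The HOX loci, gene lists and tests were chosen with earlier results of these data known. HOX loci are named whatever their values, but a few single-gene results, 1 HOX locus among them, are not reported here and not drawn, although they are part of the counts, sums and medians. Of each list, the 3 genes per direction with the largest called changes and a mean of at least 50 are named, together with the nearest protein-coding gene on each side of a cluster that passed the minimum, CDK12 and CDK13. PBX2, EZH1, EZH2, KMT2A, genes given as not called and genes given as listed at 0 were added to show the lists. Tests used limma 3.58.1 in R 4.3.3 (trended variance, log2(value + 1), no covariates, 3 against 3 libraries). Fold changes of low loci are understated on this scale, and p-values measure the spread between these cultures. Alternatives, run with edgeR 4.0.16 and DESeq2 1.42.0 among others, are given at the end. The script for the tests was checked on simulated data. Exon and intron lengths came from GENCODE 44. Replicate numbers did not pair the libraries.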

Additional observations from a re-analysis of the deposited data

How the results depend on the processing

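Results were recomputed under 19 alternatives, namely other pseudocounts (0.1 and 10), other minimums (none and 50), 3 scalings, a replicate block, calls by adjusted p or at 2-fold, untrended limma, edgeR, DESeq2, and the omission of single libraries. Of 487 values for single HOX loci, 427 kept their direction and call, 40 lost a call, 16 gained one and 4 changed sign. Scaled to the same total, 4 HOX loci were called higher, the median HOX log2 fold change was 0.29, and 1647 of all tested loci and 18 of the listed partners and regulators were called higher. Scaled to RPL34, 1 HOX locus was higher and 8 lower, the median was 0.0401, all tested loci had 1078 higher and 7524 lower, and the listed partners and regulators had 7 higher and 29 lower. At a fold change of 2, 4 HOX loci were higher and 1 lower, all tested loci had 1353 and 2689, and 8 of the listed genes were higher. Fewer calls at a stricter fold follow from its construction.

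With the replicate block, 9 HOX loci were higher and 4 lower, the same loci as without it, and the counts over all loci changed by less than 1.5 times. Deviations of libraries with the same number correlated at 0.0017, 0.019 and -0.039, so the numbers name the libraries only. With edgeR and DESeq2, 8 HOX loci were higher and 4 lower, and HOXC10 was the call lost in both. When single libraries were omitted, 6 to 12 HOX loci were higher and 3 to 4 lower, and the median log2 fold change was 0.43 to 0.51. The deposited split of 9 to 4 rose to 12 to 3 without DMSO replicate 3 and fell to 6 to 4 without DMSO replicate 1.

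Some uncalled values changed sign. Scaled to the same total, the log2 fold change was -0.054 for HOXA7, -0.14 for LNPK and -0.15 for HOXB-AS1. Scaled to RPL34, it was -0.30 for HOXA7, -0.39 for LNPK, -0.11 for CDK12, -0.22 for HOTAIRM1, -0.39 for HOXB-AS1 and -0.11 for HAGLROS. With single libraries left out, it ranged from -0.34 to 0.17 for HOXB9, -0.70 to 0.066 for SKAP1, -0.14 to 0.23 for HOXB-AS1, -0.25 to 0.12 for HAGLR and -0.075 to 0.89 for HAGLROS. The cause was not tested. Depth limits the 10 HOX loci under the minimum and those with under 50 reads per library.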
